A study of Mus musculus with 5 samples.

Results

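The tight junction and apical polarity genes of the mouse uterine luminal layer were followed across the days before and after embryo attachment. The set was given as a list of 36 gene symbols, and all 36 were found among the 23420 genes of the deposited count table. The libraries came from wild-type C57BL/6N females on day 3 morning, day 4 morning, day 4 evening and day 5 morning of pregnancy, where day 1 is the day of the vaginal plug. On day 5, 1 library held the luminal layer at a distance from the attached embryo (the away library, with Mpole in its name) and 1 held the layer that surrounds the embryo (the around library, with Ampole in its name). The study uses M and AM for the mesometrial and anti-mesometrial poles of the uterus. If the names mean these poles, nearness to the embryo and pole cannot be told apart between the day 5 libraries. The names of the earlier libraries give no pole. Each of the 5 groups was 1 library of laser-microdissected tissue amplified with the SMART-seq v.4 kit, so no difference between groups has a replicate check. The age of the females and the number of animals behind each library are not given in the sources used here. The study set the receptive uterus of day 4 against the attachment phase of day 5, and day 4 morning is the reference here. Values of single libraries are listed in 1 order throughout, which is day 3 morning, day 4 morning, day 4 evening, day 5 away and day 5 around, and is called library order.

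Tight junctions seal the space between neighbouring epithelial cells near their apical side. Claudins and the Marvel-domain proteins, of which occludin is the best known, form the strands within the membrane, the JAM proteins lie beside them, and the plaque proteins of the Tjp (ZO) and cingulin families link them to actin. The Par, Crumbs and Scribble complexes define the apical and the basolateral side of the cell. In the uterus, the luminal epithelium is the cell layer to which the blastocyst attaches, and its claudins set which ions and solutes can pass between the cells.

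The total counts of the libraries ranged from 15334674 to 19529491, and 12918 genes had a mean of at least 1 CPM (counts per 1000000 counts of a library) over the 5 libraries. Of the 36 members, 33 passed this filter. Changes are differences of log2 CPM after TMM scaling, with 2 counts added to each value, and the values in brackets are Clopper-Pearson limits (95%, exact) for the ratio of counts, which cover counting error only. A gene is said to have risen or fallen when its log2 change lies beyond 1 in either direction, that is more than 2-fold. Levels of different genes are compared only as RPKM (CPM per 1000 bases of the gene length in the table). In bulk tissue such as this, fewer cells of a type and less RNA per cell cannot be told apart.

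Markers of the epithelium were present in every library, with all 5 of 5 (Krt8, Krt18, Krt19, Epcam and Cdh1) counted and a summed level from 2605 CPM in the away library to 5022 CPM in the around library. They were not steady and did not move together. Krt19 had 13708 counts on day 4 morning and 708 and 2732 in the away and around libraries. In the same libraries Krt8 had 20002, 8023 and 14092 counts, and Krt18 had 16737, 20293 and 19600. Epcam had 7016, 11848 and 26243 counts, and Cdh1 had 10617, 8029 and 22658. From day 4 morning to the around library the log2 change was -2.25 for Krt19, -0.43 for Krt8, 0.30 for Krt18, 1.97 for Epcam and 1.17 for Cdh1. All 11 stromal markers were also counted in every library, at a sum of 443 to 678 CPM. Single stromal markers moved apart, since from the away to the around library Hand2 went from 389 to 2282 counts, Lum from 997 to 115 and Dcn from 1709 to 242. Markers of other cells were also uneven between the libraries. The 6 embryo markers summed to between 1.92 and 11.9 CPM in the first 4 libraries and to 61.4 CPM in the around library. Of that last sum, Eomes and Elf5 gave 35.8 and 18.7 CPM. Both were also counted in every other library, with 62 and 148 counts on day 4 morning. Of the 6 markers, Pou5f1, Cdx2 and Nanog were at 0 in the other 4 libraries and had 68, 22 and 10 counts in the around library. Smooth muscle markers summed to between 7.81 and 27.4 CPM elsewhere and 389 CPM in the around library, most of it from Des. Endothelial markers summed to at most 45.4 CPM elsewhere and 97.5 CPM in the around library, of which Cdh5 gave 72.3 CPM. From the away to the around library Cdh5 and Pecam1 had more counts, while Kdr, Tek, Emcn and Vwf had fewer. Leukocyte markers, all 5 of them counted in every library, summed to between 51.5 CPM in the around library and 90.8 CPM on day 4 morning. Cd68 went from 220 counts in the away library to 670 in the around library, while Ptprc, Tyrobp, Csf1r and Cd52 had fewer counts there. Of the 6 gland markers, 4 were in the table and summed to between 1.27 and 4.00 CPM elsewhere and 12.9 CPM in the around library, with 3, 2, 3 and 0 of these 4 at 0 in the 4 libraries before the last. The 3 mesothelial markers summed to between 7.78 and 19.2 CPM, with 2 of them at 0 on day 4 morning. The part of these cells in the results was not tested.

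RefSeq start sites on GRCm38.p6 were available for 27 of the 36 members, 43 sites in all. The 250 bases before a start are shown for Cldn10, the member with the largest rise on day 5, at both of its start sites, for Cldn1 and Cldn4, which rose most of the abundant claudins in the around library apart from Cldn10, and for Crb3, the apical determinant that rose with them. The sequences run 5′ to 3′ on the strand of the gene, and capitals mark the E-box CACCTG (read on either strand, as CAGGTG on the other), which proteins of the Snail and Zeb families bind.
Cldn10, first start, chr14:118787621-118787870, plus strand: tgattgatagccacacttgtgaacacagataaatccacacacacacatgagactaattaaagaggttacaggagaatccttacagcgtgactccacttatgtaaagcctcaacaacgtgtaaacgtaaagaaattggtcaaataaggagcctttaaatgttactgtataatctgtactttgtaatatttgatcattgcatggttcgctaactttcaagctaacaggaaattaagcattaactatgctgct
Cldn10, second start, chr14:118854700-118854949, plus strand: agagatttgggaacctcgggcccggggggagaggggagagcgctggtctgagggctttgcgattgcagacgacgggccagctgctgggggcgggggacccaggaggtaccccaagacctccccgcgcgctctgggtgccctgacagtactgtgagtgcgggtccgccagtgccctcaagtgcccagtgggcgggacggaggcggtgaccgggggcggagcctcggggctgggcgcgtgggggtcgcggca
Cldn1, chr16:26371840-26372089, minus strand: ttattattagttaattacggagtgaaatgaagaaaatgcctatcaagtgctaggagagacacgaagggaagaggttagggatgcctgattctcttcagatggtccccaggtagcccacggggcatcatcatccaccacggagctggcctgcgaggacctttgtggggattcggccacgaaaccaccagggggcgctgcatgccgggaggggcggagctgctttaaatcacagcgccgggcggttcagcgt
Cldn4, chr5:134946935-134947184, minus strand: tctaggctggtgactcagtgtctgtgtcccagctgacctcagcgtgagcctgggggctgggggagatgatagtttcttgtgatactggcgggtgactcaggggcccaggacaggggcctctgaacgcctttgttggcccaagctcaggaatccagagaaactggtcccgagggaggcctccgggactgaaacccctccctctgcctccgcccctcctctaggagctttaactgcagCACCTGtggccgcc
Crb3, first start, chr17:57061951-57062200, plus strand: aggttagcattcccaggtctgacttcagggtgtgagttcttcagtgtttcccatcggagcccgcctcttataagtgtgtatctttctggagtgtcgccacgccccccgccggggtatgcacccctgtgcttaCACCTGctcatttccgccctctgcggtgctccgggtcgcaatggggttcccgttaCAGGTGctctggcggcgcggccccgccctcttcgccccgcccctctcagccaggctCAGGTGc

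In these windows Cldn4 held 1 E-box, 14 bases before the start, and Crb3 held 3, while the windows of Cldn10 and Cldn1 held none. Over the matched members, 11 of 27 (40.7%) held CACCTG on either strand before at least 1 start, against 5252 of 27025 genes (19.4%) in the whole RefSeq table. A gene with more start sites has more windows that can hold a motif. Counted by start site, 14 of 43 windows of the members (32.6%) held CACCTG, against 5657 of 32851 (17.2%). Several start sites of 1 gene share bases, and these shares were not tested. The Stat motif TTCNNNGAA, which reads the same on both strands, was found for Amot, Cldn12 and Cldn7, 11.1% of the matched members against 8.13% of all genes. The Grainyhead motif AACCGGTT, also the same on both strands, was found before no start of a matched member and for 0.137% of all genes. The first start of Cldn10 lay in a window with 4 CpG and the second in one with 22. The deposited counts are per gene, so reads from the separate starts of Cldn10 cannot be told apart.

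The claudin transcripts of the luminal layer changed in make-up between day 4 and day 5. On day 3 morning and in both day 4 libraries Cldn3 and Cldn7 together held 81.4% to 91.6% of the claudin level, and on day 5 Cldn10 joined them in both libraries. In the around library Cldn1 and Cldn4 held a larger share than on day 4, and Cldn8 and Cldn23 a smaller one. The summed RPKM of the 14 claudins in the list was 1490, 2680, 2278, 2296 and 3074 in library order. Cldn3 alone accounted for 55.1%, 72.9%, 62.7%, 49.4% and 25.2% of this sum in that order. Cldn7 stood second in the first 4 libraries and first in the around library, with shares of 26.3%, 18.8%, 27.2%, 20.7% and 34.0%. The RPKM ratio of Cldn3 to Cldn7 was thus 3.88 on day 4 morning and 0.741 in the around library. Cldn10 held 0.0549% of the claudin RPKM on day 4 morning, 2.20% on day 4 evening, 14.8% in the away library and 21.2% in the around library. The leading pair of claudins held 91.6% of the sum on day 4 morning and 59.1% in the around library. These shares do not depend on how libraries were scaled, but they do depend on the gene length used. The deposited lengths of Cldn3, Cldn7, Cldn10 and Cldn1 are 1263, 1453, 1446 and 3241 bases. Their exon bases in GENCODE vM21 are 1259, 1948, 2591 and 4841. The order of Cldn3 and Cldn7 in the around library is therefore less certain. So are the shares of Cldn10 and of Cldn1, alone or with Cldn4, and other lengths were not used.

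**Figure D1:**
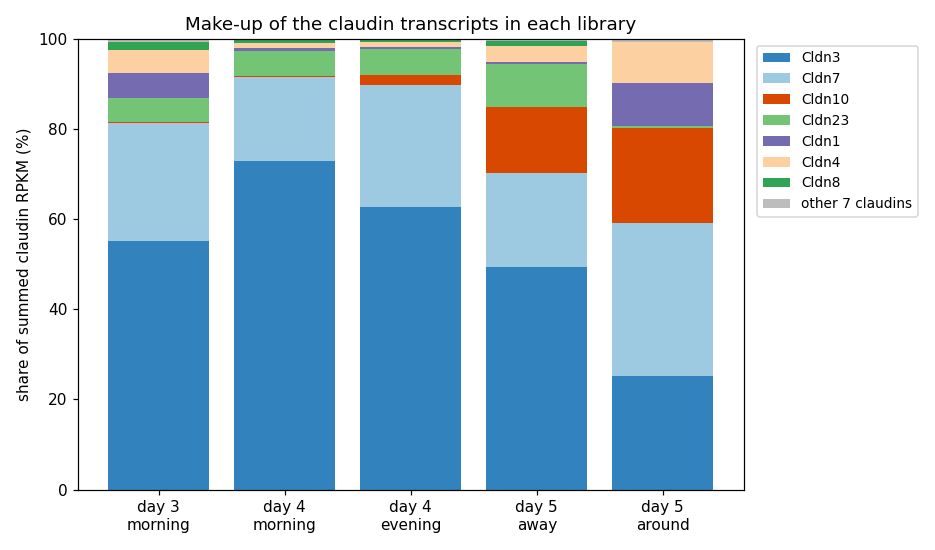
Stacked bars give the share of the summed claudin RPKM (%) held by each claudin in the 5 libraries, 1 library per bar. Cldn3 (blue) shrinks from 72.9% on day 4 morning to 25.2% in the around library, while Cldn10 (dark orange) grows from 0.0549% to 21.2%.

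Cldn10 encodes a claudin known to form ion-selective pores, and its transcript showed the largest rise among the members in the day 4 evening and both day 5 libraries. GRCm38/mm10 places it on chromosome 14 (118787871 to 118874525). In library order it had 51, 38, 1143, 9249 and 15981 counts. The level was already up on day 4 evening and was higher in both day 5 libraries than in any earlier one. The log2 change from day 4 morning was 5.02 [4.63, 5.60] on day 4 evening, the 5th largest of the 12918 genes. It was 7.78 [7.40, 8.35] in the away library, the 25th largest, and 8.71 [8.33, 9.29] in the around library, the 49th largest. Between the day 5 libraries Cldn10 differed by 0.93 [0.90, 0.97].

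Cldn3 and Cldn7, claudins widespread in simple epithelia, stayed the most abundant pair by RPKM in all 5 libraries. Cldn3 (chromosome 5, 134986214 to 134987476) had 18343, 44038, 28395, 26917 and 16604 counts in library order. It was highest on day 4 morning, and its log2 change from there was -0.78 [-0.80, -0.76] in the away library and -1.34 [-1.36, -1.31] in the around library. It was also lower on day 3 morning, at -1.25 [-1.27, -1.22], or -0.91 when libraries were scaled by their totals. Cldn7 (chromosome 11, 69964779 to 69967886) had 10057, 13057, 14180, 12964 and 25779 counts. The around library was the highest for Cldn7, with a log2 change of 1.05 [1.02, 1.08] from day 4 morning, which was 0.89 when libraries were scaled by their totals without Rn45s, a precursor of ribosomal RNA, and Lars2.

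Cldn1 and Cldn4 were high on day 3 morning, low on day 4 and highest in the around library. Cldn1, a claudin that tightens the paracellular barrier of the epidermis, lies on chromosome 16 (26356646 to 26371839). It had 4796, 1017, 613, 722 and 16049 counts in library order. The day 5 libraries lay on opposite sides of the reference, at -0.56 [-0.71, -0.43] in the away library and 4.05 [3.96, 4.14] in the around library, and they differed by 4.61 [4.51, 4.73]. Cldn4, also a barrier-forming claudin, lies on chromosome 5 (134945124 to 134946934) and had 2372, 1014, 765, 2646 and 8538 counts. It rose in both day 5 libraries, by a log2 change of 1.31 [1.21, 1.42] in the away library and 3.14 [3.05, 3.24] in the around library. Cldn4 and Cldn3 are neighbours on opposite strands, with a gap of 39279 bases, and in the around library 1 of them rose and the other fell. Cldn12 (chromosome 5, 5505015 to 5514976) rose in both day 5 libraries at a lower level. In library order Cldn12 had 457, 297, 395, 658 and 925 counts, and its log2 changes on day 5 were 1.07 [0.88, 1.28] and 1.70 [1.52, 1.90].

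Cldn8 and Cldn23 had the opposite pattern, in that neither fell in the away library and both fell in the around library. Cldn8, a claudin known from tight epithelia of the kidney and colon, lies on chromosome 16 (88560826 to 88563183). In library order it had 1081, 691, 263, 1266 and 51 counts. From day 4 morning the log2 change was -1.21 [-1.42, -1.01] on day 4 evening, 0.80 [0.67, 0.94] in the away library and -3.64 [-4.13, -3.28] in the around library. Cldn23 (chromosome 8, 35824709 to 35826559) had 2610, 4999, 3712, 7539 and 401 counts in library order. Its log2 change was 0.52 [0.47, 0.57] in the away library and -3.56 [-3.72, -3.42] in the around library. The day 5 libraries differed by -4.44 [-4.92, -4.09] for Cldn8 and -4.08 [-4.24, -3.94] for Cldn23, the 30th and 46th lowest of the 12918 genes. Cldn8 and Cldn23 together held 10.7% of the claudin RPKM in the away library and 0.456% in the around library. Cldn1 and Cldn4 together held 10.6% on day 3 morning, 1.83% on day 4 morning and 18.5% in the around library.

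Cldn5, Cldn6 and Cldn9 were counted at low levels and passed the filter largely through the library in which each was highest. They therefore enter the counts of changed members below only in tallies over all 33. The main tally of each comparison is also given without them. Cldn5, the main claudin of endothelium (chromosome 16, 18776847 to 18778262), had 6, 29, 22, 16 and 75 counts. The endothelial cadherin Cdh5 had 48, 150, 171, 133 and 1229 counts, while Pecam1 had 126 on day 4 morning and 124 in the around library. Cldn6, known from embryonic epithelia (chromosome 17, 23679365 to 23682446), had 46, 3, 6, 6 and 138 counts, a log2 difference of 4.24 [3.51, 6.14] between the day 5 libraries. The around library is also the only one of the 5 with counts of Pou5f1, Cdx2 and Nanog, and the part of embryo cells in the level of Cldn6 was not tested. Cldn9 (chromosome 17, 23682584 to 23684026) lies 137 bases from Cldn6 on the other strand and had 75, 11, 4, 0 and 0 counts. No stretch of 50 bases in the GENCODE vM21 transcripts of either gene was found in a transcript of another gene. Against a floor of 3 counts in the away library, Cldn9 was at least 3.85-fold lower there than in the reference library. Cldn2, Cldn11 and Cldn15 did not pass the filter, with at most 10, 3 and 11 counts in any library.

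**Figure D2:**
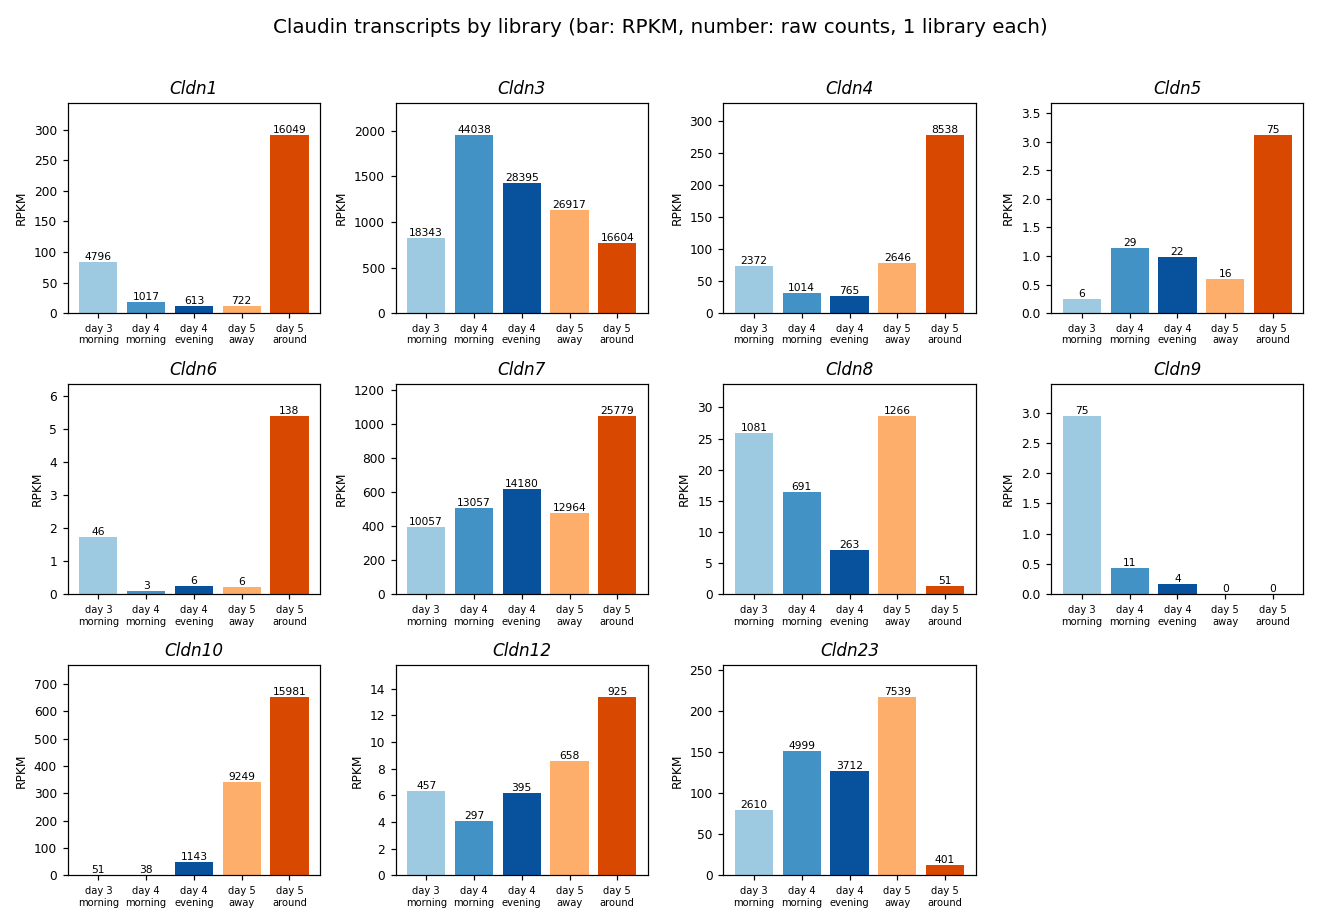
Bars give RPKM of the 11 claudins that passed the filter in each of the 5 libraries, on a linear axis from 0 that differs between panels, and the number above a bar is its raw count. Cldn10 is high in both day 5 libraries, Cldn1 reaches 16049 counts in the around library only, and Cldn8 and Cldn23 drop there to 51 and 401 counts.

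Of the 6 other membrane members, Jam2 fell in both day 5 libraries, Ocln rose in the around library and Jam3 was lower on day 3 morning. Jam2, an adhesion molecule of the immunoglobulin superfamily (chromosome 16, 84774123 to 84826375), had 19856, 35137, 22237, 3459 and 15157 counts in library order. It was lowest in the away library. Its log2 change from day 4 morning was -3.42 [-3.47, -3.37] in the away library and -1.14 [-1.17, -1.11] in the around library, a difference of 2.27 [2.22, 2.33]. Ocln, which encodes occludin (chromosome 13, 100497367 to 100552498), had 3047, 3191, 3019, 5311 and 8428 counts in library order. The 3 libraries before day 5 were close to each other, and Ocln then stood at a log2 change of 0.66 [0.60, 0.73] in the away library and 1.47 [1.41, 1.53] in the around library. F11r, which encodes JAM-A (chromosome 1, 171437561 to 171464593), had 4664, 4409, 2735, 2632 and 4781 counts and differed by 1.00 [0.94, 1.07] between the day 5 libraries. Jam3 (chromosome 9, 27097384 to 27155421) had 72, 188, 215, 236 and 180 counts, lowest on day 3 morning at -1.35 [-1.78, -0.97]. Of the exon bases of Jam3, 36.2% are overlapped by the antisense gene Gm48796 in GENCODE vM21, and the strand setting of the counting is not given, so its reads may be shared. Marveld2, which encodes tricellulin, stayed within a log2 change of 1 in every comparison and had 858 counts on day 4 morning and 1513 in the around library. Marveld3, the remaining Marvel-domain member, ranged from 319 to 703 counts and also stayed within 1.

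In the plaque, Cgnl1 and Amot rose on day 5 in both libraries and Tjp3 fell in both. Cgnl1, which encodes paracingulin (chromosome 9, 71626509 to 71771602), had 414, 634, 1162, 2746 and 1858 counts in library order. Its log2 change was 1.05 [0.91, 1.20] on day 4 evening, 2.04 [1.92, 2.17] in the away library and 1.62 [1.49, 1.76] in the around library. Its relative Cgn, which encodes cingulin, had 741, 1487, 803, 1483 and 716 counts and lay just within 1 of day 4 morning on day 3 morning (-0.99) and in the around library (-0.98). The RPKM of Cgnl1 was 5.26 on day 4 morning against 16.5 for Cgn, and 10.9 against 10.1 on day 4 evening. It was 21.7 against 15.7 in the away library and 16.2 against 8.37 in the around library. The order of the 2 genes was thus exchanged in both day 5 libraries and, by a small margin, already on day 4 evening. For Cgn, 17.2% of the 50-base stretches of its transcripts also occur in other GENCODE transcripts, first of all BC021767, so its level is less certain. Amot, which encodes the angiomotin scaffold (chromosome X, 145446424 to 145487046), had 151, 105, 126, 369 and 388 counts and log2 changes on day 5 of 1.72 [1.42, 2.07] and 1.94 [1.64, 2.28]. Tjp3, which encodes ZO-3 (chromosome 10, 81273200 to 81291267), had 411, 647, 330, 219 and 182 counts. Its log2 changes on day 5 were -1.63 [-1.86, -1.41] in the away library and -1.75 [-2.00, -1.52] in the around library. Tjp1, which encodes ZO-1, the scaffold to which the strands attach, ranged from 1231 to 2018 counts and stayed within 1 in every comparison. Magi1 (chromosome 6, 93675455 to 94283904) had 439, 458, 241, 695 and 262 counts and was lower in the around than in the away library, at -1.26 [-1.47, -1.06].

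Of the 10 members in the Par, Crumbs and Scribble complexes, none lay beyond 1 on day 3 morning, on day 4 evening or in the away library, and 3 did so in the around library. Of all genes, 19%, 14.1%, 29.1% and 43.3% were beyond 1 in these 4 comparisons. Crb3, the epithelial Crumbs protein of the apical membrane (chromosome 17, 57062277 to 57065914), had 1658, 1643, 2024, 2680 and 4303 counts in library order. Its log2 change was 0.63 [0.54, 0.72] in the away library and 1.46 [1.38, 1.54] in the around library. Its partner Mpp5, also called Pals1, lay between 1541 and 1872 counts in all 5 libraries. The paralogous Par6 genes went in opposite directions. Pard6b (chromosome 2, 168081004 to 168101203) had 663, 684, 641, 1043 and 1400 counts and a change of 1.10 [0.97, 1.24] in the around library, which was 0.94 when scaled by totals without Rn45s and Lars2. Pard6a (chromosome 8, 105701154 to 105703494) had 218, 260, 212, 167 and 56 counts and a change of -2.11 [-2.59, -1.72] there. By RPKM, Pard6b and Pard6a were at 11.3 and 10.2 on day 4 morning and at 24.2 and 2.31 in the around library. The atypical protein kinase C gene Prkci ranged from 2027 to 3101 counts, and Pard3, Prkcz, Scrib, Dlg1 and Llgl2 also stayed within 1 in every comparison. Over the 11 members that stayed within 1 throughout, log2 changes ranged from -0.99 to 0.89. For Prkcz, 14.8% of the 50-base stretches are shared with Prkcz2, so reads may be split between them.

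**Figure D3:**
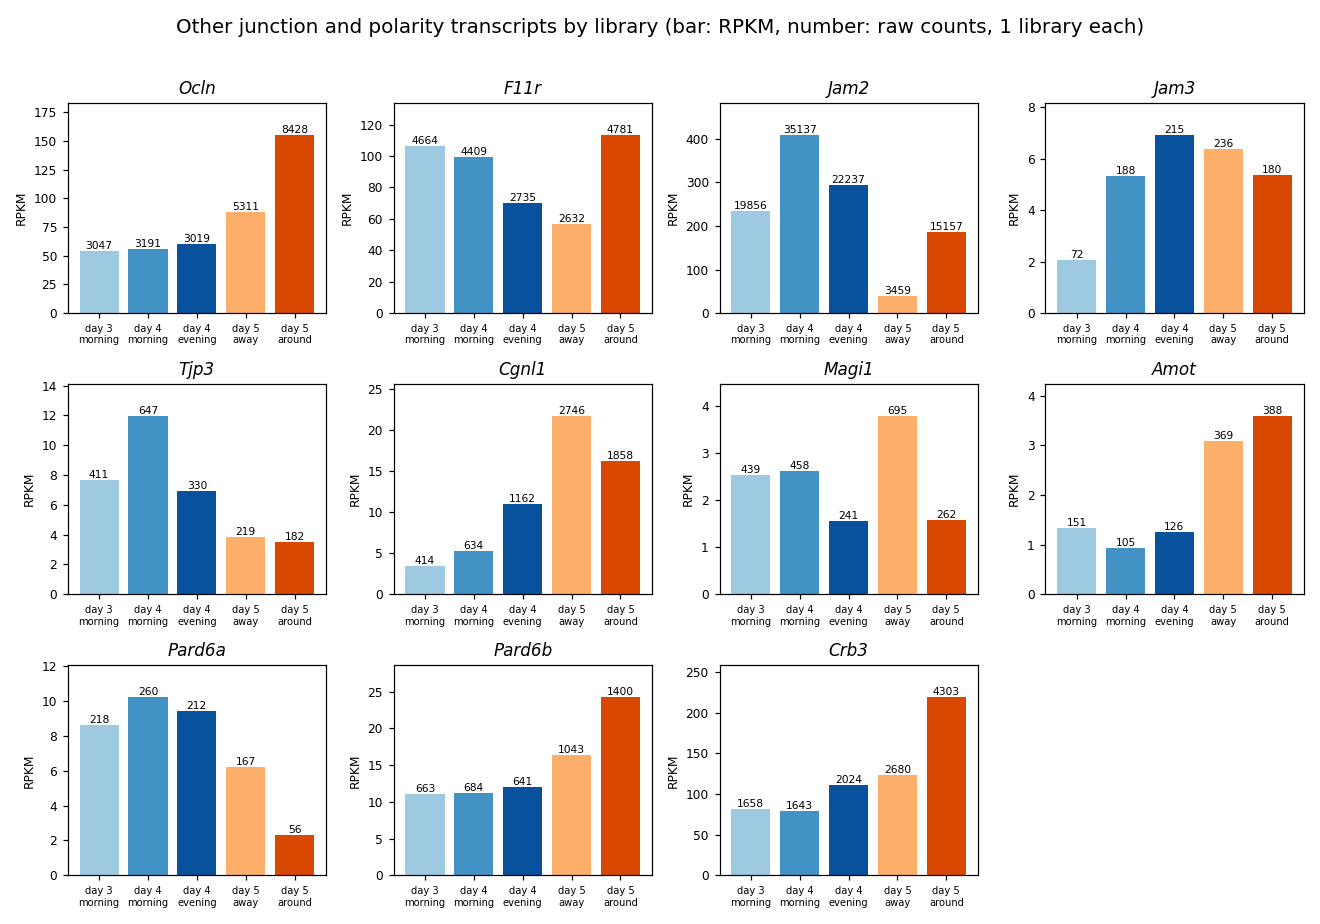
Bars give RPKM of the 11 members other than claudins that lay beyond a log2 change of 1 in at least 1 comparison, in each of the 5 libraries, on a linear axis from 0 that differs between panels, with the raw count above each bar. Jam2 drops to 3459 counts in the away library, and Pard6b and Pard6a part in the around library at 1400 and 56 counts.

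The changes are summarised by comparison. In the away library, against day 4 morning, 5 of the 33 members rose (15.2%, against 14.6% of all 12918 genes) and 3 fell (9.09%, against 14.5%), where 29.1% of all genes changed in either direction. The median log2 change of the members was 0.14, and that of all genes was -0.01. In the around library 12 members rose (36.4%, against 20.9% of all genes) and 7 fell (21.2%, against 22.4%), with a median of 0.48 against -0.02 over all genes, of which 43.3% changed in either direction. The same 5 genes, Cldn4, Cldn10, Cldn12, Cgnl1 and Amot, rose in both libraries, and Jam2 and Tjp3 fell in both. The third gene among those that fell in both is Cldn9, which went from 11 counts to 0 and 0 and passed the filter only through day 3 morning. A further 7 members, Cldn5 and Cldn6 among them, rose and 4 fell in the around library alone by this threshold. No member rose in one library and fell in the other. Joint shares over both day 5 libraries were not counted for all genes, so these joint counts have no background. All 4 comparisons with day 4 morning share that library. With the filter raised to a mean of 5 CPM, which leaves out Cldn5, Cldn6 and Cldn9, 10 of 30 members rose (33.3%, against 19.2% of the 10426 genes kept) and 6 fell (20%, against 19.8%) in the around library. In the away library 5 of these 30 rose (16.7%, against 13%) and 2 fell (6.67%, against 12.8%). Of the 8 claudins among them, 5 rose and 3 fell in the around library, and 3 rose and 0 fell in the away library.

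**Figure D4:**
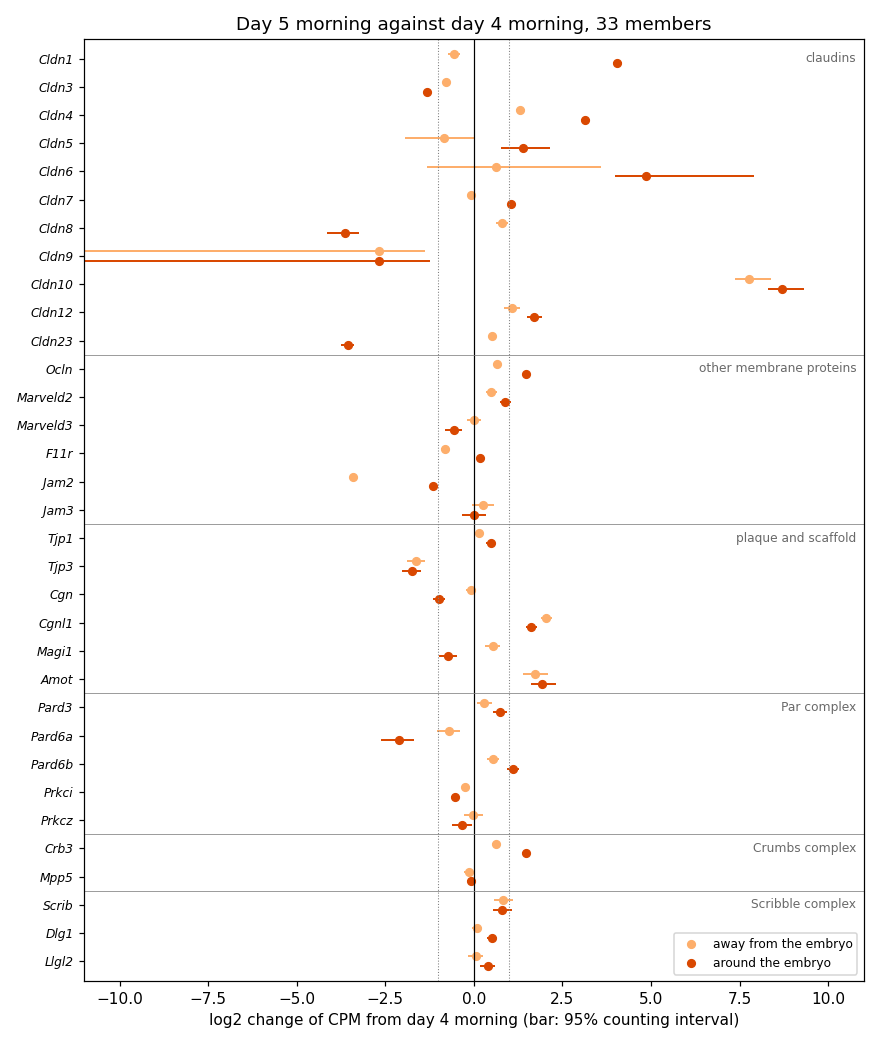
Points give the log2 change of CPM from day 4 morning for the 33 members that passed the filter, in the away library (light) and the around library (dark), grouped by role, with 95% counting intervals as bars and dotted lines at 1 and -1. Most points in the around library lie farther from 0 than those in the away library among the claudins, and the points of Cldn1, Cldn8 and Cldn23, among others, lie on opposite sides of 0. Bars that reach the left edge are unbounded, since Cldn9 had 0 counts.

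Compared directly, 7 members were more than 2-fold higher in the around than in the away library (21.2%, against 13.7% of all genes) and 4 were lower (12.1%, against 14.5%), with a median of 0.34 against -0.02, and 28.2% of all genes differed in either direction. The higher genes were Cldn1, Cldn4, Cldn5, Cldn6, Cldn7, F11r and Jam2, and the lower ones Cldn8, Cldn23, Magi1 and Pard6a. Without Cldn5, Cldn6 and Cldn9, 5 of 30 members were higher (16.7%, against 11.7% of the genes kept) and 4 lower (13.3%, against 11.8%). F11r lay at the threshold, and F11r and Cldn7 stood at 0.66 and 0.80 when libraries were scaled by their totals. On day 4 evening, 2 members were higher than on day 4 morning (6.06%, against 7.15% of all genes), Cldn10 and Cgnl1, and 1 was lower (3.03%, against 6.96%), Cldn8, where 14.1% of all genes differed in either direction, and the same 3 genes are left without Cldn5, Cldn6 and Cldn9. On day 3 morning, 4 members were higher (12.1%, against 11% of all genes), namely Cldn1, Cldn4, Cldn6 and Cldn9, and 3 were lower (9.09%, against 7.97%), namely Cldn3, Cldn5 and Jam3, where 19% of all genes differed in either direction. Cldn9 passed the filter only through day 3 morning, and without Cldn5, Cldn6 and Cldn9 the higher members were 2 of 30 (6.67%, against 8% of the genes kept) and the lower ones also 2 (6.67%, against 5.94%). The medians were -0.05 on day 3 morning and -0.12 on day 4 evening, against -0.04 and -0.00 over all genes.

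A list of 45 further symbols of the pathway was also read, of which 42 were in the table and 29 passed the filter. In the away library 4 of the 29 were higher than on day 4 morning and 3 lower (13.8% and 10.3%, against 14.6% and 14.5% of all genes, median 0.17), and in the around library 7 were higher and 4 lower (24.1% and 13.8%, against 20.9% and 22.4%, median 0.38). On day 3 morning 2 were higher and 3 lower (6.90% and 10.3%, against 11% and 7.97%), and on day 4 evening 3 and 1 (10.3% and 3.45%, against 7.15% and 6.96%). Between the day 5 libraries 6 were higher and 3 lower in the around library (20.7% and 10.3%, against 13.7% and 14.5%). Among those with a mean of at least 10 CPM, the largest change was that of Ildr1, a component of tricellular junctions, which had 2412 counts on day 4 morning and 776 and 173 on day 5 (away and around), with log2 changes of -1.71 [-1.83, -1.59] and -3.71 [-3.96, -3.51]. Lsr, the related angulin that recruits tricellulin, went the other way and had 1957, 2954 and 6172 counts, with 1.73 [1.66, 1.80] in the around library. Cxadr, an adhesion molecule of the tight junction, had 1033 counts on day 4 morning and 2801 and 5541 on day 5 (1.37 [1.26, 1.47] and 2.49 [2.40, 2.59]). On the log2 scale Marveld1 rose by 2.34 [2.04, 2.71] in the away library, Amotl2 by 1.97 [1.81, 2.13] in the around library and Magi3 by 1.24 [1.04, 1.46] in the around library.

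Of 12 regulators of junction genes, 11 passed the filter, and 5 were higher and 1 lower in the away library, against 6 and 2 in the around library, with medians of 0.81 and 1.17. These are 45.5% and 9.09% of the 11 in the away library, against 14.6% and 14.5% of all genes, and 54.5% and 18.2% in the around library, against 20.9% and 22.4%. None was beyond 1 on day 3 morning or day 4 evening. In the around library 3 were higher than in the away library (27.3%, against 13.7% of all genes). The 5 higher in the away library were Grhl1, Snai1, Snai2, Zeb2 and Twist1. The 6 higher in the around library were Grhl1, Ovol1, Elf3, Snai1, Snai2 and Twist1. Snai1, Snai2 and Twist1 were low, with a mean of 5.63, 1.58 and 2.52 CPM. Snai2 had 7, 15, 21, 45 and 52 counts in library order and passed the filter largely through the day 5 libraries, in which it was called higher. The shares of this list include these low genes and were not counted without them, so they are not shown to be unusual. Grhl1, a Grainyhead-family factor, had 34 counts on day 4 morning and 660 and 2145 on day 5, with log2 changes of 4.13 [3.71, 4.75] and 5.97 [5.56, 6.59]. Grhl2, the family member best known for epithelial junction genes, had 1734, 956 and 649 counts, with -1.34 [-1.48, -1.22] in the around library. Elf3, an epithelial Ets factor, had 5011 counts on day 4 morning and 896 and 11190 on day 5, and differed by 3.78 [3.69, 3.89] between the day 5 libraries. Ovol1 had 691, 1277 and 4976 counts, with 2.92 [2.80, 3.04] in the around library. Zeb2, a repressor of epithelial genes, had 239, 523 and 236 counts, with 1.05 in the away library and 0.05 in the around library.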

How the data were processed

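RNA-seq of the uterine luminal layer of wild-type mice gave 5 libraries, 1 per group. The authors deposited raw counts per gene, which per the labels and the methods of the study come from HISAT2 alignment to GRCm38/mm10 and featureCounts of Subread 2.0.0. The gene annotation, strand setting and handling of multi-mapping reads are not given in the sources used here. The same table gives another deposited value, the gene length in bases, which was used for RPKM.

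Counts were read with Python 3.11.15 and pandas 2.3.3. The filter kept the 12918 genes whose mean CPM by library totals was 1 or more, and libraries were scaled by TMM in edgeR 4.0.16 (R 4.3.3). A prior count of 2 was added for log2 CPM. A floor of 3 counts equals 0.160 to 0.190 CPM. Rn45s and Lars2 took 15.0% to 23.2% of the counts. With 1 library per group no test between groups was made, and a gene was called when its log2 change was beyond 1. DESeq2 1.42.0 size factors and edgeR's exact test, with its dispersion set to 0.1, were alternatives, and the latter compares libraries, not conditions.

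The members and lists were chosen with earlier results of these data known. Members were named with all counts when they passed the filter and lay beyond 1 in at least 1 of 5 comparisons, which held for 22 of 33, and the other 11 are given by range. From each further list, up to 6 genes whose mean CPM was 10 or more and whose change was largest were named. Start sites and promoter sequences are from RefSeq on GRCm38.p6, and overlaps between genes are from GENCODE vM21. An epithelial marker of the list is not reported here, and the summed level is over the other markers.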

Additional observations from a re-analysis of the deposited data

Results flagged for a closer look

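With TMM scaling, the 2 day 5 libraries lay on opposite sides of day 4 morning for 5 claudins, with counting intervals that do not hold 0 and at least 1 change beyond 1. The log2 change in the away and around libraries was -0.56 and 4.05 for Cldn1, -0.85 and 1.38 for Cldn5, -0.08 and 1.05 for Cldn7, 0.80 and -3.64 for Cldn8, and 0.52 and -3.56 for Cldn23. Each side is 1 library, both share the day 4 morning library, and the difference was not tested. The share of all genes that meet this rule was not counted, so these 5 are not shown to be unusual. Other scalings, read for these genes after seeing the data, kept Cldn1, Cldn8 and Cldn23 on opposite sides with intervals that leave out 0. Cldn7 in the away library turned positive, at 0.22 [0.18, 0.25] with library totals and 0.07 [0.03, 0.11] with totals without Rn45s and Lars2, and in the around library it stood at 0.89 with the latter. For Cldn5 in the away library the upper limit was -0.0016 with TMM and 0.0098, 0.30 and 0.15 with DESeq2 size factors, library totals and totals without Rn45s and Lars2, so the 3 alternatives include 0.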

How the results depend on the processing

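The alternatives were DESeq2 size factors, library totals, library totals without Rn45s and Lars2 (added after seeing the data) and a prior count of 0.5. All 48 changes of single members beyond 1 kept their direction under them. A reversal was hardly possible, since these changes were picked as beyond 1 and the scalings moved the median of all genes by between -0.34 and 0.32. The kept direction is therefore no support. Under library totals 3 of the 48 came within 1, under totals without Rn45s and Lars2 4 did, and under the other pair of settings 0 did. Library totals moved the median change of all genes by 0.32 for day 3 morning, 0.29 for the away library and -0.34 between the day 5 libraries. They moved the median of the members to 0.28, 0.44 and 0 in these comparisons, and totals without Rn45s and Lars2 moved it to 0.13, 0.29 and 0.0257, and to 0.32 in the around library. Library totals put 7 members higher in the away library, against 5 in the main setting. With no filter, 5 members were lower on day 3 morning, 3 on day 4 evening and 5 in the away library. The lower members added without a filter were Cldn11 and Cldn15, with at most 3 and 11 counts in any library. A mean of at least 5 CPM left 2 members higher on day 3 morning, and a prior count of 0.5 put 2 lower on day 4 evening. With the whole counting interval beyond 1, 1 member was lower on day 3 morning and 1 higher on day 4 evening. Shares over all genes were not counted under library totals, no filter, the lower prior count or the whole-interval rule. The exact test of edgeR at a dispersion of 0.1 with a false discovery rate under 0.05 called 1 member higher and 0 lower on day 4 evening, 3 higher and 0 lower on day 3 morning, 2 higher and 1 lower in the away library, 6 higher and 5 lower in the around library, and 4 higher and 2 lower between the day 5 libraries. Of all 12918 genes it called 157 higher and 80 lower on day 4 evening, 377 and 98 on day 3 morning, 741 and 761 in the away library, 1599 and 1554 in the around library, and 802 and 585 between the day 5 libraries. The cause was not tested. No paired analysis was possible because each group holds 1 library, and for the same reason no library could be left out. The precision of Cldn5, Cldn6 and Cldn9 is limited by their low counts.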
